A study of Homo sapiens with 14 samples.

Results

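Transcripts of 10 genes that encode neuropeptides and granins were followed in CHP-134, an established human neuroblastoma cell line with amplified MYCN. They were defined by gene symbol, as a set of 6 neuropeptide precursors (NPY, VIP, GAL, SST, CARTPT and ADCYAP1) and 4 granins (CHGA, CHGB, SCG2 and SCG3). Each of the 10 symbols was found under 1 identifier in both count tables, which list 17810 and 19143 genes. RNA-seq was available from 14 libraries of 4 groups. In the first experiment, CHP-134 cells carried a doxycycline-inducible lentiviral transgene for either EGFP, a fluorescent protein used as control, or OmoMYC, a mutated MYC dimerization domain that competes with MYC proteins. These 2 lines were transduced and drug-selected as separate populations, were grown in tetracycline-approved serum, and both received 1 µg/ml doxycycline for 3 days before RNA was taken from 3 cultures each. In the second, parental CHP-134 cells without a transgene or tagged protein received 500 nM dTAG47, a degrader of FKBP12-tagged proteins, or its vehicle DMSO for 18 h, with 4 cultures each. No agent or allele other than these is named in the labels.

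Neuropeptides are made as larger precursors that enter the secretory pathway, are packed into dense-core vesicles, and are cut there by prohormone convertases before release. Granins are acidic, calcium-binding proteins of the same vesicles. They help to condense the cargo and are themselves cut into peptides. Neuroblastoma arises from the sympathoadrenal lineage, whose mature cells store catecholamines together with granins and neuropeptides, and chromogranin A is a common marker of this tumour and of other neuroendocrine tumours.

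Among these genes, several are known to carry a cAMP response element, a short palindrome bound by CREB family factors, close to the start of transcription. To show what the files and the reference hold at these sites, RefSeq promoter windows of 300 bases (250 before and 50 after the start, assembly GRCh38.p14) were searched on both strands. Windows were present for 7 of the 10 genes (NPY, VIP, SST, CARTPT, ADCYAP1, CHGA and SCG3), with 2 windows for ADCYAP1. The full palindrome TGACGTCA lay in the windows of CHGA, SST and CARTPT, and in 1.85% of all 35116 windows. VIP held the shorter element TGACG, the first 5 letters of the palindrome, once on each strand. SCG3 and 1 of the windows of ADCYAP1 held 1 match each, which began 4 and 238 bases before the start. The shorter element was in 24.6% of all windows and is part of every full element. Of the genes with the shorter element alone, SCG3 was abundant. Stretches are given for CHGA, SST, CARTPT and VIP, 5′ to 3′ in the direction of the gene, with the matched letters in capitals. They were chosen because CHGA is the most abundant of the 10 genes while the other 3 were almost absent.
CHGA, chr14:92923056-92923143, plus strand: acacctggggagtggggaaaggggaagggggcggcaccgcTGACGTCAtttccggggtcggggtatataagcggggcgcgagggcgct
SST, chr3:187670394-187670481, minus strand: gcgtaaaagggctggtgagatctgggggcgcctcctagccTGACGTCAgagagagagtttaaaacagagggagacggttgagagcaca
CARTPT, chr5:71719092-71719179, plus strand: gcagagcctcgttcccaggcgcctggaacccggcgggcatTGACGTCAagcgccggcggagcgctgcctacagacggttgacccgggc
VIP, chr6:152750668-152750752, plus strand: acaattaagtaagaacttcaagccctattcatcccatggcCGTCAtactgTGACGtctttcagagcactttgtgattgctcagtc

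The first base of the element stood 54 bases before the start of CHGA, 47 before that of SST and 143 before that of CARTPT. The 2 short elements of VIP began 89 and 79 bases before its start. The canonical E-box CACGTG, the form best bound by MYC and MAX, was in none of the 8 windows and in 7.26% of all windows. The looser form CANNTG, which includes CACGTG, was in 68.7% of all windows and in 5 of the 8, namely those of SST, CARTPT, CHGA and SCG3 and 1 of the windows of ADCYAP1. These matches describe letters in a fixed window and not binding. The same full element thus stood near the start of CHGA, counted at 206 to 373 CPM per library, and near those of SST and CARTPT, counted at no more than 4 reads in any library.

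Expression is given as CPM, a gene's share of the library in counts per 1e6, after scaling of each library by edgeR's TMM method, and the 2 tables were scaled separately. Libraries held 28060817 to 53451641 counts. Replicate libraries were compared by a chi-square over genes, which is near 1 per degree of freedom where sampling noise is the sole difference. It was 2.67 to 43.5 within groups and highest between EGFP replicates 1 and 3, so no library repeated another. Of the adrenergic markers, GATA3 (302 ± 17.6 CPM with EGFP, SD, n = 3) and HAND2 (258 ± 19.8) were high in every group, whereas TH and DBH, the enzymes of catecholamine synthesis, had group means of 0.238 to 1.16 CPM. Of 12 markers of Schwann, mesenchymal, endothelial and blood cells, 11 were found in each table, and they summed to 47.0 to 57.4 CPM per library in the engineered lines and 19.3 to 21.4 in parental cells, and PECAM1 had at most 1 count in the EGFP and OmoMYC libraries. MYCN, the MYC protein of these cells, was at 2712 ± 266 CPM with EGFP and 2240 ± 66.0 with OmoMYC, and at 2679 ± 73.9 with DMSO and 2859 ± 95.8 with dTAG47. MYC, whose counts cannot be told from those of the transgene derived from it, was at 0.610 CPM with EGFP and 522 with OmoMYC, the direction that the labels give.

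Of the reads counted on the 10 genes, 89.6% to 94.2% per library fell on the 4 granins. Only levels corrected for exon length can be compared between genes, and these are given as RPKM, CPM per kilobase of exon (GENCODE lifted to GRCh37). The annotation used for counting is not given, so the exons counted may differ from these lengths, which limits any order between genes. CHGA was highest in every group, with 86.2 ± 20.4 RPKM in EGFP, 112 ± 10.4 in OmoMYC, 96.1 ± 3.71 in DMSO and 102 ± 6.26 in dTAG47 libraries (SD, n = 3, 3, 4 and 4), and its libraries did not overlap those of the next gene. SCG3, GAL and SCG2 followed at 29.9 to 50.1 RPKM, and CHGB at 10.5 to 13.4. Within the middle 3 genes the order was SCG3, GAL, SCG2 in EGFP, DMSO and dTAG47 libraries, although GAL and SCG2 overlapped in EGFP, SCG3 and GAL in DMSO, and all neighbours in dTAG47. In OmoMYC the order was SCG2 (48.2 ± 1.54), SCG3 (40.9 ± 0.933) and GAL (29.9 ± 1.36), without overlap. NPY and ADCYAP1 came last, NPY before ADCYAP1 in the engineered lines (2.58 against 0.144 RPKM in EGFP) and overlapping in parental cells (1.25 and 1.51 RPKM in DMSO).

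**Figure D1:**
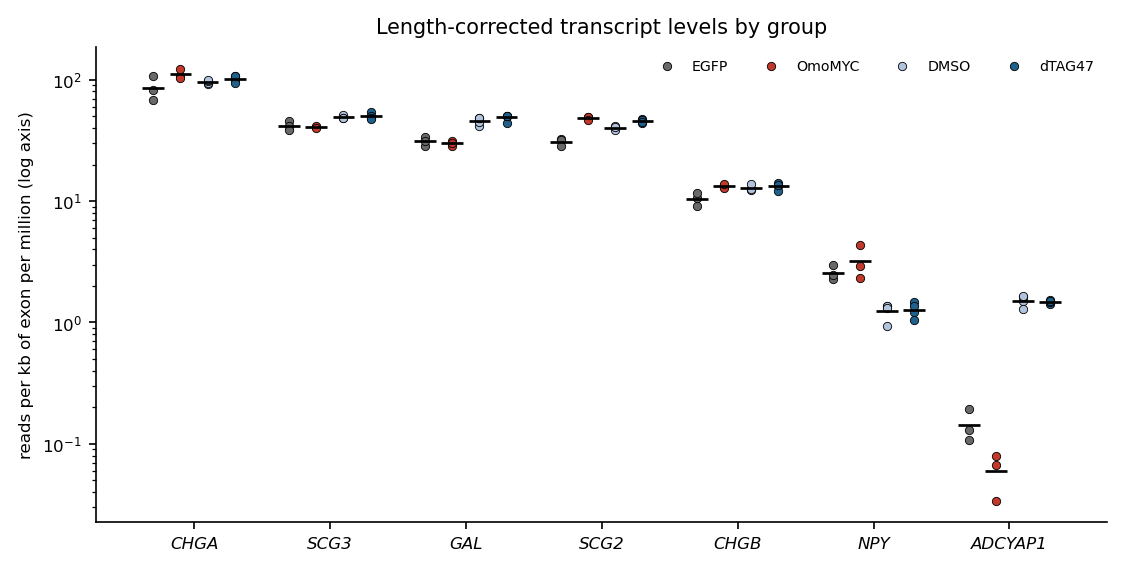
Length-corrected level (RPKM, log axis) of the 7 genes with more than a few counts, with 1 point per library, coloured by group, and a bar at the group mean. CHGA lies highest in all 4 groups, SCG2 lies above SCG3 with OmoMYC alone, and the group means of ADCYAP1 are 0.144 and 0.0600 RPKM in the engineered lines and 1.51 and 1.48 in parental cells.

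The first comparison asks how these transcripts differ when MYC proteins are inhibited, with OmoMYC against EGFP. SCG2, CHGB and CHGA rose with OmoMYC, SCG2 by 1.57-fold and the other 2 by about 1.3-fold, and the low transcript of ADCYAP1 fell. NPY, GAL and SCG3 did not pass the test, and VIP, SST and CARTPT had too few counts to be tested. Thus 3 of the 7 tested genes were called higher and 1 lower, at an adjusted p below 0.05 by edgeR's quasi-likelihood test over 13803 genes. The same test called 27.3% of all tested genes higher and 25.7% lower, so calls in either direction were common in this table. For 2 of the 7 genes (SCG2 and CHGB) all OmoMYC libraries lay above all EGFP libraries, as for 32% of all tested genes, and for 1 (ADCYAP1) all lay below, as for 30.3%. Of the tested genes, ADCYAP1 passed the filter on low counts through its EGFP libraries alone, the group where it was higher. The call lower therefore did not come from a gene that passed in both groups. The median log2 fold change over all tested genes was 0.01. In bulk RNA, fewer cells with a transcript and less transcript per cell cannot be told apart, and differences between the separately made lines are part of these values.

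SCG2 (ENSG00000171951.4, chromosome 2 of GRCh37, 224461658 to 224467079) encodes secretogranin II, the precursor of the peptide secretoneurin. It was counted at 83.2, 81.9 and 72.8 CPM in the EGFP libraries and at 126, 127 and 120 CPM in the OmoMYC libraries. The OmoMYC libraries lay close together and well above all EGFP libraries. On the log2 scale this was a change of 0.65 ± 0.07 (SE, 95% interval 0.48 to 0.81, adjusted p = 6.74e-05, edgeR). It kept its call in all 14 alternative fits, with log2 fold changes of 0.56 to 0.67.

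CHGB (ENSG00000089199.5, chromosome 20, 5892156 to 5905999) encodes chromogranin B, also called secretogranin I. Its levels were 40.8, 47.1 and 52.2 CPM with EGFP and 59.5, 57.0 and 61.8 CPM with OmoMYC. The groups did not overlap, although EGFP replicate 3 lay close to the lowest OmoMYC library. On the log2 scale this was a change of 0.35 ± 0.09 (SE, adjusted p = 0.00994, edgeR), and the call was lost without OmoMYC replicate 3 (0.29, adjusted p = 0.0677).

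CHGA (ENSG00000100604.8, chromosome 14, 93389495 to 93401630) encodes chromogranin A, the precursor of vasostatin, pancreastatin and catestatin. It was counted at 206, 248 and 327 CPM with EGFP and at 324, 315 and 373 CPM with OmoMYC. The groups overlapped, since EGFP replicate 3 lay above OmoMYC replicates 1 and 2, and the EGFP libraries were themselves widely spread. On the log2 scale this was a change of 0.37 ± 0.14 (SE, adjusted p = 0.0450, edgeR). Leaving out any library except EGFP replicate 3 ended the call, with adjusted p up to 0.218 (edgeR). The log2 fold change was lowest without EGFP replicate 1 (0.21, adjusted p = 0.0784), and without EGFP replicate 3 it was 0.54.

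SCG3 (ENSG00000104112.4, chromosome 15, 51973689 to 52013223) encodes secretogranin III, which binds chromogranin A and anchors it to cholesterol-rich membranes of forming vesicles. It was at 144, 132 and 123 CPM with EGFP and at 131, 132 and 126 CPM with OmoMYC. The OmoMYC libraries lay within the range of the EGFP libraries. Its log2 fold change was -0.04 with a 95% interval of -0.20 to 0.13, and its adjusted p was 0.704 (edgeR). Annotation places 2 antisense genes across SCG3 and 2 across ADCYAP1, and whether the counting used strand is not given in the sources used here, so reads of these partners could be included.

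The 4 granins therefore did not share 1 value. The ratio of SCG2 to SCG3 counts, which does not depend on library scaling, was 0.577 to 0.620 in the EGFP libraries and 0.946 to 0.968 in the OmoMYC libraries. It was 0.653 to 0.686 with DMSO and 0.710 to 0.772 with dTAG47. The ranges were thus separate within each experiment, by more with OmoMYC. In contrast, the ratio of CHGA to CHGB counts was 5.05 to 6.28 with EGFP, 5.44 to 6.04 with OmoMYC, 4.97 to 5.33 with DMSO and 5.06 to 5.42 with dTAG47, and overlapped in both experiments. Ratios are descriptions without a test.

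**Figure D2:**
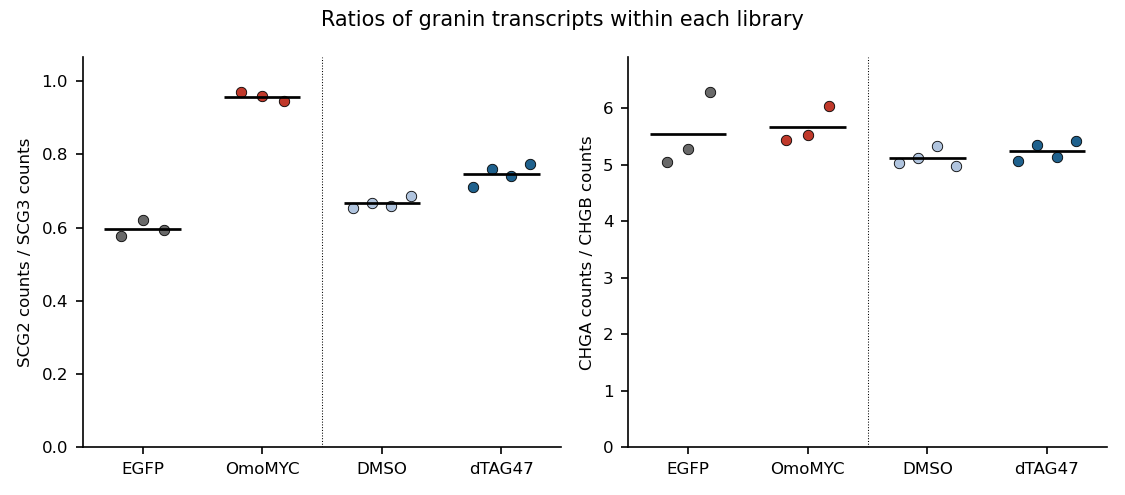
Ratio of SCG2 to SCG3 counts (left) and of CHGA to CHGB counts (right) in each of 14 libraries, with bars at group means and axes from 0. The SCG2 to SCG3 ratio of OmoMYC libraries (0.946 to 0.968) stands above that of EGFP libraries (0.577 to 0.620), whereas CHGA to CHGB ratios overlap between groups of each experiment.

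GAL (ENSG00000069482.6, chromosome 11, 68451247 to 68458643) encodes galanin and its message-associated peptide, and was the most abundant of the 6 neuropeptide transcripts per length. It was counted at 37.0, 43.8 and 41.0 CPM with EGFP and at 40.4, 37.0 and 39.4 CPM with OmoMYC. The groups overlapped, and the log2 fold change was -0.06 with a 95% interval of -0.25 to 0.13 (adjusted p = 0.566, edgeR).

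NPY (ENSG00000122585.3, chromosome 7, 24323807 to 24331481) encodes neuropeptide Y, a co-transmitter of sympathetic neurons. Its levels were 2.05, 2.65 and 2.20 CPM with EGFP and 3.85, 2.62 and 2.07 CPM with OmoMYC. OmoMYC replicate 1 alone lay above the EGFP libraries, and the other two lay within their range. The log2 fold change of 0.30 had a 95% interval of -0.19 to 0.80 (adjusted p = 0.277, edgeR), which is wide enough to hold the estimate of SCG2. At 63 to 113 counts per library, neither a change of that size nor none could be told apart.

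ADCYAP1 (ENSG00000141433.8, chromosome 18, 904872 to 912173) encodes PACAP, a peptide that raises cAMP in sympathetic and adrenal cells. It had 16, 21 and 12 counts in the EGFP libraries (0.505, 0.752 and 0.413 CPM) and 9, 10 and 4 in the OmoMYC libraries (0.307, 0.259 and 0.132 CPM). The groups did not overlap, at levels close to the limit of counting. On the log2 scale this was a change of -1.23 ± 0.40 (SE, 95% interval -2.12 to -0.34, adjusted p = 0.0246, edgeR). The call was lost without EGFP replicate 2 (-0.99, adjusted p = 0.101) or OmoMYC replicate 3 (adjusted p = 0.0773).

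The remaining precursors were at or near 0. SST (ENSG00000157005.3, chromosome 3, 187386700 to 187388182), which encodes somatostatin, had 1, 1 and 0 counts with EGFP and 1, 2 and 4 with OmoMYC. VIP (ENSG00000146469.8, chromosome 6, 153071932 to 153080900), which encodes vasoactive intestinal peptide, had 1 count in OmoMYC replicate 2 and 0 in the other engineered libraries. CARTPT (ENSG00000164326.4, chromosome 5, 71015102 to 71016875), the precursor of cocaine- and amphetamine-regulated transcript peptides, had 0 counts in all 6. A count of 0 allows up to 3 counts, or 0.0778 to 0.107 CPM in these libraries, and covers counting error only, so lower levels were not detectable at this depth.

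**Figure D3:**
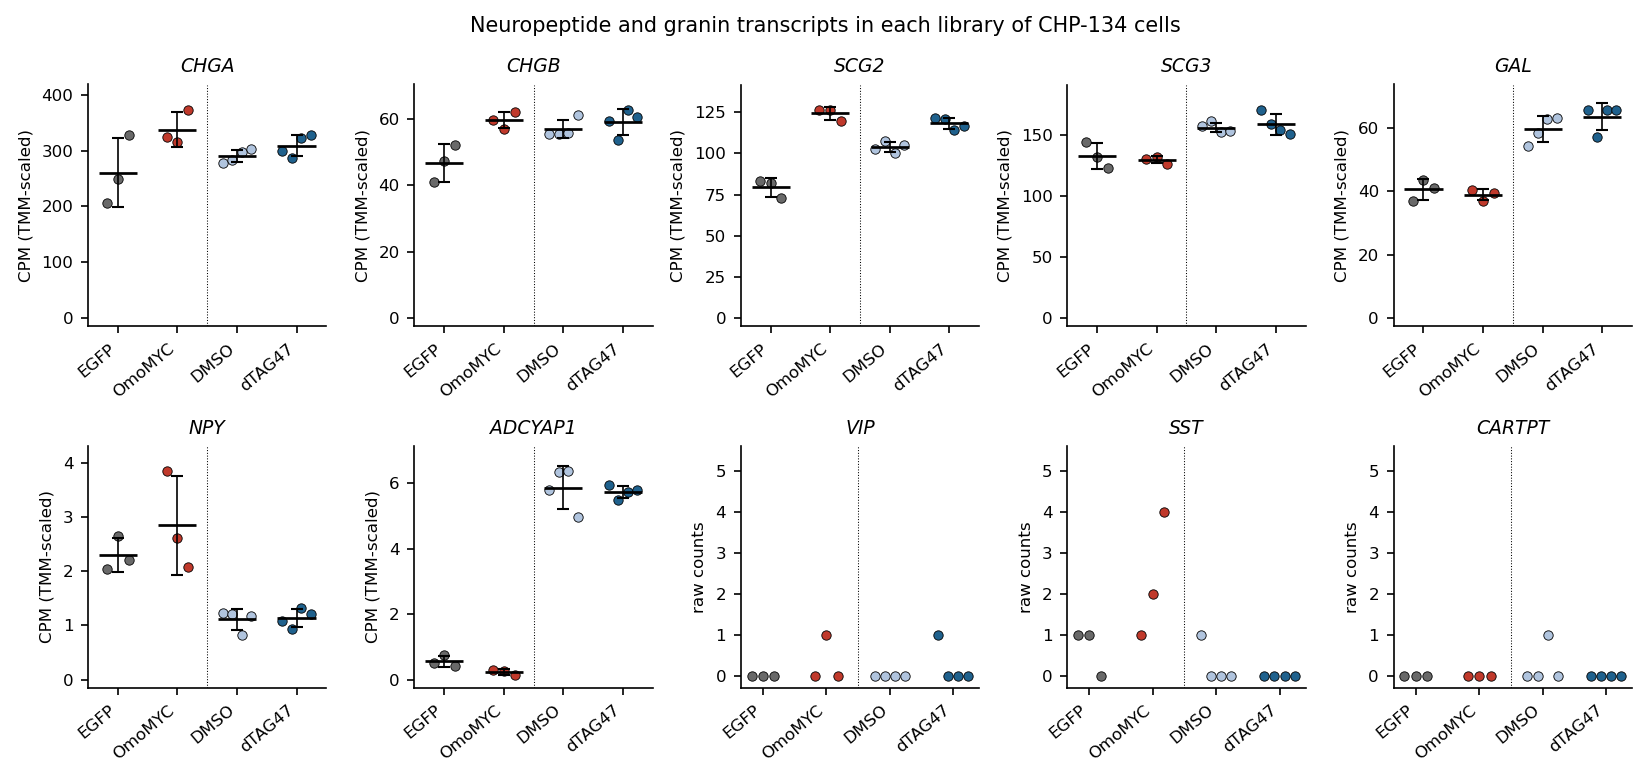
Level of each of the 10 genes in every library (CPM after TMM scaling for 7 genes, raw counts for VIP, SST and CARTPT), with 1 point per library and, for CPM, the mean ± SD of each group; the dotted line divides the separately scaled tables. SCG2 and CHGB are separated between EGFP and OmoMYC, SCG2 is also separated between DMSO and dTAG47, and VIP, SST and CARTPT do not exceed 4 counts.

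The second comparison was a control for effects of dTAG47 itself, in cells with no tagged protein. Of the 7 tested genes, 0 were called higher and 0 lower by edgeR, whereas DESeq2 called 1, SCG2, and 1 gene had an unadjusted p below 0.05. Over all 14470 tested genes, edgeR called 0.117% higher and 0.0415% lower, and 7.28% had an unadjusted p below 0.05 (edgeR). DESeq2 called 59 genes in either direction. SCG2 was at 103, 108, 100.2 and 105 CPM with DMSO and at 121, 121, 114 and 116 CPM with dTAG47. All 4 dTAG47 libraries lay above all 4 DMSO libraries, as for 1.87% of all tested genes, and 0 of the 7 genes lay wholly below, against 1.47%. On the log2 scale its change was 0.19 ± 0.04 (SE, 95% interval 0.10 to 0.27, adjusted p = 0.145, edgeR), and DESeq2 gave 0.18 (adjusted p = 0.00680). With a factor for replicates 1 and 2 against 3 and 4 it was 0.19 and passed the threshold (adjusted p = 0.000341, edgeR), in a fit that called 794 genes against 23. Replicates 1 and 2 alone gave 0.21 (adjusted p = 0.287) and replicates 3 and 4 alone 0.16 (adjusted p = 0.000687), a split made after seeing that these pairs of libraries resembled each other.

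Among the other granins, CHGA was at 279, 284, 297 and 303 CPM with DMSO and at 300, 286, 322 and 327 CPM with dTAG47. The groups overlapped, and the log2 fold change of 0.09 had a 95% interval of -0.01 to 0.19 (adjusted p = 0.675, edgeR). With replicates 3 and 4 alone it was 0.11 and passed the threshold (adjusted p = 0.0209, edgeR). That split leaves fewer libraries per group and was made after seeing the data, so it does not stand as a call for CHGA. CHGB was at 55.5, 55.4, 55.7 and 61.0 CPM with DMSO and 59.3, 53.5, 62.7 and 60.3 CPM with dTAG47, which was 0.05 on the log2 scale (95% interval -0.07 to 0.17). SCG3 was at 157, 161, 152 and 154 CPM with DMSO and 171, 159, 154 and 151 CPM with dTAG47, which was 0.02 on the log2 scale (95% interval -0.07 to 0.12). For both genes the groups overlapped in full or in large part.

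Of the peptide precursors in parental cells, GAL was at 54.4, 58.3, 62.9 and 63.2 CPM with DMSO and 65.8, 57.1, 65.7 and 65.7 CPM with dTAG47. Its 3 high dTAG47 libraries lay above all DMSO libraries, whereas dTAG47 replicate 2 fell among the low ones, and the log2 fold change was 0.09 (95% interval -0.04 to 0.22, adjusted p = 0.705, edgeR). ADCYAP1 was at 5.79, 6.33, 6.37 and 4.97 CPM with DMSO and 5.93, 5.48, 5.73 and 5.77 CPM with dTAG47. The dTAG47 values lay inside the range of the DMSO values (log2 fold change -0.03, 95% interval -0.22 to 0.16). NPY was at 1.23, 1.21, 0.829 and 1.18 CPM with DMSO and 1.08, 0.928, 1.31 and 1.22 CPM with dTAG47, with a log2 fold change of 0.02 (95% interval -0.35 to 0.39). VIP, SST and CARTPT had 1 count each over the 8 parental libraries, and the limit that 0 counts allow was 0.0557 to 0.0732 CPM.

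**Figure D4:**
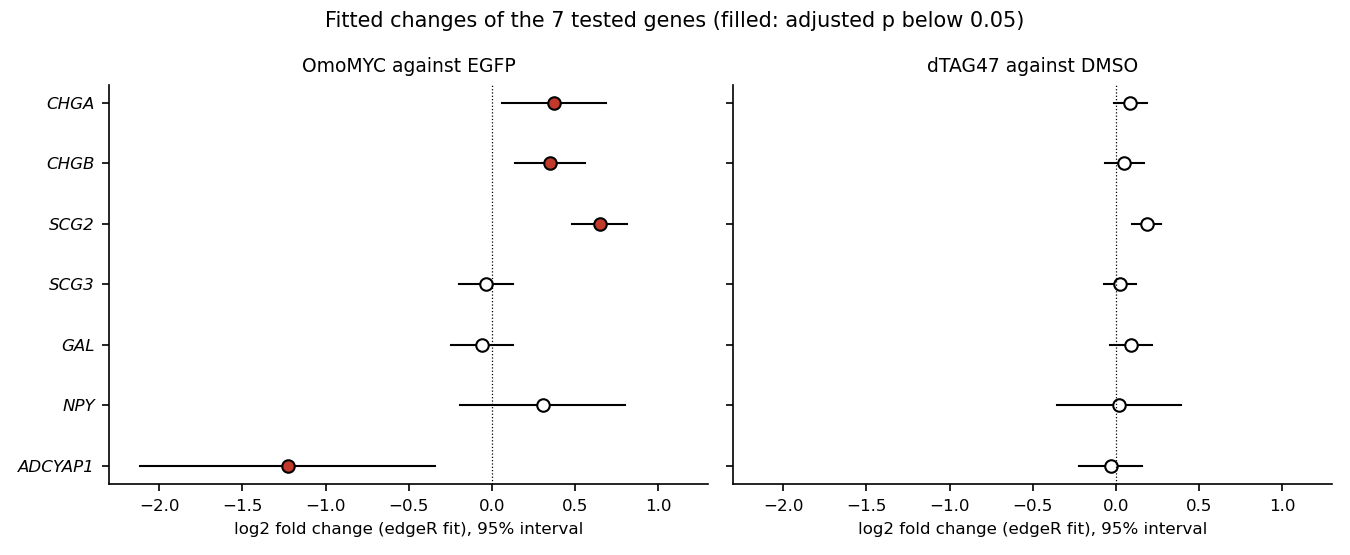
Log2 fold change with its 95% interval (edgeR fit) for the 7 tested genes, OmoMYC against EGFP on the left and dTAG47 against DMSO on the right, on the same axis; filled points passed an adjusted p of 0.05. SCG2 (0.65), CHGA (0.37) and CHGB (0.35) lie to the right and ADCYAP1 (-1.23) to the left with OmoMYC, and with dTAG47 no point is filled in this fit, without a factor for replicates, and only the interval of SCG2 (0.10 to 0.27) leaves 0 out.

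Between the tables, ADCYAP1 had 0.557 ± 0.175 CPM in EGFP cells and 5.86 ± 0.653 in DMSO-treated parental cells (SD, n = 3 and 4), and NPY 2.30 ± 0.311 and 1.11 ± 0.191 CPM. GAL had 40.6 ± 3.38 and 59.7 ± 4.19 CPM. These are values of separately scaled tables set side by side without a test. Transduction and selection, serum, doxycycline and length of treatment all differ between these groups and cannot be told apart.

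Precursors are cut and trimmed by convertases and carboxypeptidases, and 15 such processing genes formed a list. Of the 13 tested with OmoMYC, 8 were called higher and 2 lower, against 27.3% and 25.7% of all tested genes, and the median log2 fold change was 0.45 against 0.01. Of the 8, PCSK1 and CPZ passed the filter on low counts through their OmoMYC libraries alone. Among the 11 genes that passed in both groups, 6 were called higher and 2 lower, with a median of 0.24. CPE, carboxypeptidase E, which removes basic residues after the convertases have cut, rose from 98.2 ± 7.03 to 157 ± 3.58 CPM (log2 fold change 0.68, adjusted p = 4.13e-05, edgeR). FURIN, a convertase of the trans-Golgi, rose from 23.1 ± 2.99 to 47.1 ± 3.33 CPM (1.03), and CPM, a membrane-bound carboxypeptidase, from 0.639 ± 0.234 to 1.71 ± 0.0826 CPM (1.41). PCSK4, a convertase best known from germ cells, rose as well (0.75), a call lost without OmoMYC replicate 3 (adjusted p = 0.0508, edgeR). PAM, which amidates the ends of peptides such as NPY and PACAP, fell from 63.1 ± 3.83 to 50.7 ± 0.703 CPM (log2 fold change -0.31, adjusted p = 0.00479, edgeR), and CPD, carboxypeptidase D, fell by 0.43 on the log2 scale. PCSK1 and PCSK2 encode the convertases that act inside dense-core vesicles. PCSK2 had at most 1 count in any engineered library, and PCSK1 had 0 to 9 counts with EGFP and 20 to 31 with OmoMYC. Both are named for this function after their values were seen.

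In the granin family beyond the 4 members, VGF, the precursor of peptides such as TLQP-21, rose from 40.5 ± 7.98 CPM with EGFP to 57.7 ± 3.57 with OmoMYC (log2 fold change 0.51, adjusted p = 0.00576, edgeR). SCG5, which encodes the chaperone of the PCSK2 convertase, was near 1 CPM and was not called (-0.29, adjusted p = 0.411). PCSK1N was listed under 2 identifiers in this table and was not analysed there.

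Receptors of the peptides, with the peptidase DPP4, formed a list of 15, of which 10 were tested, 4 called higher and 1 lower (median log2 fold change 0.13). Of these 5 calls, GALR2 and SSTR5 (higher) passed the filter through the OmoMYC libraries alone and DPP4 (lower) through the EGFP libraries alone. Among the 7 genes that passed in both groups, 2 were called higher and 0 lower, against 27.3% and 25.7% of all tested genes. ADCYAP1R1, the PACAP-selective receptor, was abundant and rose from 112 ± 5.63 to 137 ± 4.60 CPM (0.28, adjusted p = 0.00602, edgeR), a call lost without EGFP replicate 2 (adjusted p = 0.0560) or OmoMYC replicate 3 (adjusted p = 0.0547). VIPR2, a receptor shared by VIP and PACAP, had 0.505, 0.537 and 0.826 CPM with EGFP and 3.27, 3.09 and 2.89 CPM with OmoMYC. Its groups lay far apart (log2 fold change 2.31, adjusted p = 1.42e-05, edgeR). SSTR2, a somatostatin receptor used for imaging of neuroendocrine tumours, was at 142 ± 2.98 and 159 ± 8.23 CPM and missed the threshold (0.17, adjusted p = 0.0521, edgeR). NPY1R, NPY5R, VIPR1 and SSTR3 had means of at most 1.73 CPM in both groups and were not called. Of these, NPY1R narrowly missed the threshold (-0.66, adjusted p = 0.0514, edgeR), with groups that overlapped. NPY5R had a similar estimate (-0.62, adjusted p = 0.110, edgeR), and its OmoMYC libraries all lay below its EGFP libraries. Corrected for length, ADCYAP1R1 (16.0 RPKM) and SSTR2 (18.0 RPKM) were thus well above the precursors of their peptides, ADCYAP1 (0.144 RPKM) and SST (0.0370 RPKM), in EGFP cells.

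Of 19 genes for formation and release of dense-core vesicles, 18 were tested, 9 were called higher and 3 lower, against 27.3% and 25.7% of all tested genes, and their log2 fold changes had a median of 0.42. SYTL5, which was not called, passed the filter through the OmoMYC libraries alone, and the median without it was 0.39. HID1, a Golgi protein needed for the sorting of granin cargo, rose from 2.24, 2.26 and 2.79 CPM with EGFP to 30.7, 28.1 and 29.5 CPM with OmoMYC. The groups lay far apart, and the log2 change was 3.60 ± 0.11 (SE, adjusted p = 3.77e-09, edgeR). PTPRN2, a transmembrane protein of the vesicles, rose from 70.1 ± 6.06 to 198 ± 12.9 CPM (1.50), RAB3B, a small GTPase of exocytosis, from 28.6 ± 1.14 to 65.4 ± 1.21 CPM (1.20), and BAIAP3 by 1.33 on the log2 scale. CADPS2 (-0.67), which primes vesicles for release, and SYTL4 (-0.48), which docks them, fell, as did RAB2A (-0.27, adjusted p = 0.0376, edgeR). RAB2A lost its call when EGFP replicate 2 or when either replicate 1 or 3 of OmoMYC was left out (adjusted p up to 0.105).

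Among 42 other neuropeptide precursors, 28 were listed in the OmoMYC table and 14 were tested, with 4 called higher and 3 lower (median log2 fold change 0.27). These shares were close to the 27.3% and 25.7% of all tested genes. PYY, which encodes peptide YY, a gut hormone of the NPY family that acts on the same receptors, had 0.536, 0.644 and 0.930 CPM with EGFP and 103, 82.4 and 85.9 CPM with OmoMYC. Corrected for length, PYY reached 76.1 ± 9.08 RPKM with OmoMYC, above GAL (29.9) and NPY (3.19) and below CHGA (112). On the log2 scale its change was 7.00 ± 0.17 (SE, adjusted p = 4.25e-10, edgeR). TAC3, the neurokinin B precursor, had 1, 5 and 1 counts with EGFP and 128, 123 and 77 with OmoMYC, and passed the filter through the OmoMYC libraries alone. SCT (0.80), the secretin precursor, and TAC4 (0.48) also rose, and APLN (-0.97), NMB (-0.41) and NPW (-0.37), the precursors of apelin, neuromedin B and neuropeptide W, fell. APLN kept its call in all 14 alternative fits, whereas TAC4 lost it in 7 (adjusted p up to 0.164), among them DESeq2 and every fit without 1 library except that without EGFP replicate 3. SCT, NMB and NPW each lost theirs when EGFP replicate 2 was left out. SCT lost it also without replicate 2 or 3 of OmoMYC (adjusted p up to 0.0562), NMB without 1 or 3 (up to 0.0771), and NPW, whose groups overlapped, without 1 or 2 (up to 0.0754).

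Transcription factors of cAMP signalling and of the REST system, which represses neuronal genes including granins in other cell types, formed a list of 11. All were tested, 2 were called higher and 5 lower, against 27.3% and 25.7% of all tested genes, and their log2 fold changes had a median of -0.15. CRTC1, a coactivator of CREB, rose from 24.7 ± 4.67 to 82.5 ± 6.44 CPM (log2 fold change 1.74, adjusted p = 2.82e-06, edgeR), and CRTC2 rose by 0.50, a call lost without EGFP replicate 2 or OmoMYC replicate 3 (adjusted p up to 0.0607). REST fell from 45.9 ± 4.32 to 29.0 ± 1.67 CPM (-0.66, adjusted p = 0.000194, edgeR), and CREM (-0.63) and INSM1 (-0.44) also fell. CREB1 itself was at 93.3 ± 10.1 and 84.3 ± 4.68 CPM and was not called. Of the 10 adrenergic markers, 5 were called higher and 1 lower, against 27.3% and 25.7% of all tested genes. TBX2 (0.99), ISL1 (0.75) and GATA2 (0.40) rose and HAND1 (-0.49) fell, and the other 2 calls, TH and DBH, passed the filter through the OmoMYC libraries alone. Among the 8 markers that passed in both groups, 3 were called higher and 1 lower, with a median log2 fold change of 0.09. GATA2 was no longer called when EGFP replicate 2 or when either replicate 1 or 3 of OmoMYC was left out (adjusted p up to 0.131). Of the 12 markers of other cell types 8 were tested, 1 was called higher and 3 lower, against 27.3% and 25.7% of all tested genes. PTPRC, called lower, passed the filter through the EGFP libraries alone. The summed level of the 11 listed was 49.1 to 56.3 CPM with EGFP and 47.0 to 57.4 with OmoMYC. Within this sum COL1A1 rose from 21.2 ± 3.48 to 31.5 ± 4.43 CPM (0.57) and COL1A2 fell from 15.7 ± 1.14 to 7.78 ± 1.16 CPM (-1.02). The part of such cells in the results was not tested.

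**Figure D5:**
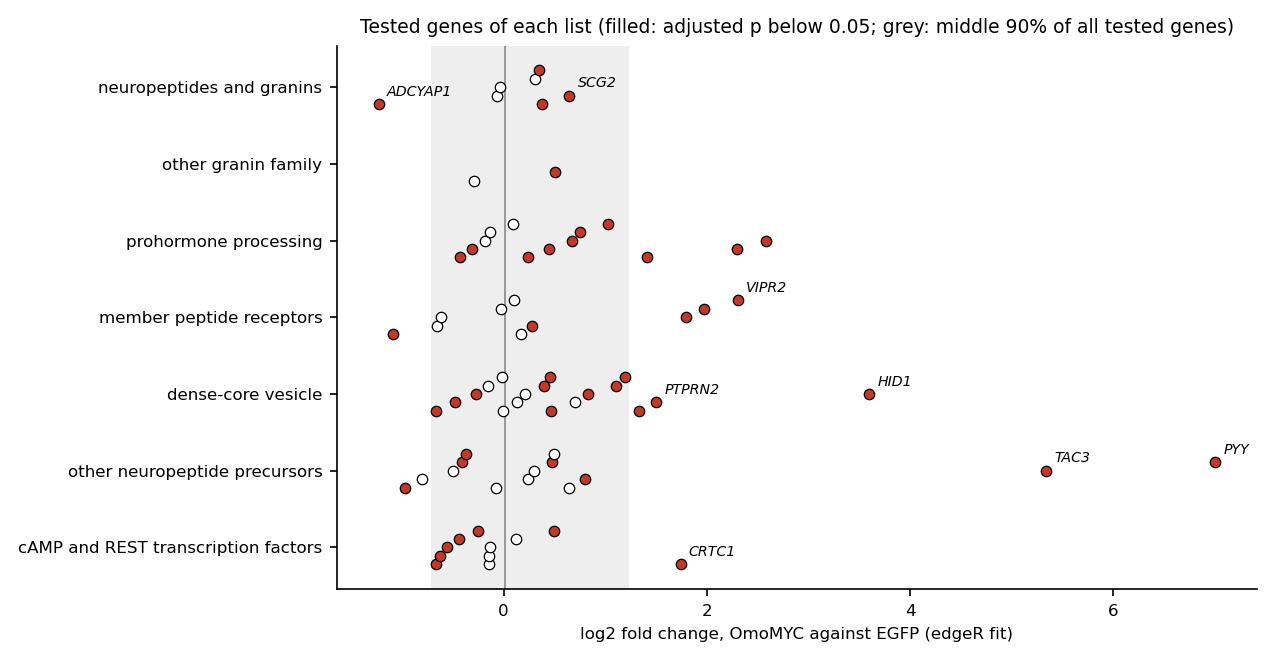
Log2 fold change (OmoMYC against EGFP, edgeR fit) of every tested gene of the neuropeptide and granin set and of 6 lists, staggered vertically only for legibility; filled points passed an adjusted p of 0.05, the grey band holds the middle 90% of all tested genes (-0.71 to 1.23) and the line their median. SCG2 (0.65) lies inside the band and ADCYAP1 (-1.23) outside, and PYY (7.00), TAC3 and HID1 (3.60) lie far to the right. Of these, ADCYAP1 passed the filter on low counts through EGFP libraries alone and TAC3 through OmoMYC libraries alone.

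In parental cells, 84 genes of these lists were tested between dTAG47 and DMSO. edgeR called 0 of them and DESeq2 called 0. An unadjusted p below 0.05 (edgeR) was found for 12 of the 84, a larger share than the 7.28% of all 14470 tested genes. Whether these shares differ was not tested. The lowest adjusted p was 0.236, for the somatostatin receptor SSTR5 (0.697 ± 0.126 CPM with DMSO and 1.22 ± 0.216 with dTAG47, a log2 fold change of 0.79). VGF was at 82.2 ± 3.94 and 91.4 ± 5.94 CPM (0.15, adjusted p = 0.673, edgeR), and PCSK1N, an inhibitor of the PCSK1 convertase, at 43.6 ± 4.04 and 46.1 ± 4.27 CPM. HID1 (2.72 ± 0.355 and 2.55 ± 0.338 CPM), PYY (0.294 ± 0.0736 and 0.463 ± 0.0792 CPM) and VIPR2 (0.249 ± 0.0945 and 0.208 ± 0.0734 CPM) were at low levels in parental cells, and TAC3 had 0 to 5 counts. ADCYAP1R1 (125 CPM in both groups) and SSTR2 (216 ± 4.33 and 221 ± 6.57 CPM) were abundant here too.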

How the data were processed

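The authors depleted ribosomal RNA, removed adapters (Cutadapt), mapped the reads (STAR, build hg19) and summed them per gene (featureCounts), as given by the study's methods and the submitters' processing notes. The deposited values are raw counts, whole numbers without normalization. The annotation and strandedness used are not given in the sources used here. From these counts, each table was analysed on its own in R 4.3.3 with edgeR 4.0.16: genes were filtered by filterByExpr (minimum count 10), libraries scaled by TMM, and groups compared by the robust quasi-likelihood test with Benjamini-Hochberg adjustment over all tested genes (FDR 0.05). CPM uses TMM-scaled totals, and RPKM divides CPM by union exon length from GENCODE 44 lifted to GRCh37. DESeq2 1.42.0, which the study used, and limma-voom 3.58.1 were alternatives, with other scalings, filters and left-out libraries. The fits were tested on simulated data. Libraries held 28060817 to 53451641 counts. Intervals cover the spread between cultures, which the methods call biological replicates, and limits cover counting error only.

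Named genes are the 10 members, MYCN, and, from lists written from general knowledge, called genes averaging 1 CPM or more, at most 4 in each direction, with uncalled receptors, granins and processing enzymes where useful. Some genes that meet this rule are counted within their lists and not reported here by name. Members and lists were chosen with earlier results of these data known. HID1 is listed in the tables under an older symbol. Replicate numbers did not pair the libraries.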

Additional observations from a re-analysis of the deposited data

Results flagged for a closer look

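In groups of 4 libraries, each gene's highest and lowest library was compared with its nearest neighbour by Dixon's ratio over 14 sets of values, of which chance alone would flag about 1 in 20. NPY in DMSO replicate 3 was at 0.829 CPM, below the 1.18 to 1.23 CPM of the other 3 DMSO libraries. GAL in dTAG47 replicate 2 was at 57.1 CPM, below the 65.7 to 65.8 CPM of the other dTAG47 libraries. CHGB in DMSO replicate 4 was at 61.0 CPM, above the 55.4 to 55.7 CPM of the other DMSO libraries. These 3 came from 3 different libraries. The groups of 3 libraries were not examined in this way.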

How the results depend on the processing

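With OmoMYC, the count of genes called higher (3) was 3 under DESeq2, limma-voom, RLE scaling, library size only, both other filters and the replicate block, 2 with upper quartile scaling, where CHGA (adjusted p = 0.0598) missed the threshold, and 1 to 3 as single libraries were left out, with 1 without OmoMYC replicate 3. The count of genes called lower (1, ADCYAP1) was 0 when at least 10 counts were required in every library, which removes this gene, and 0 to 1 as single libraries were left out. SCG3 (-0.04) was between -0.12 and 0.0095 as single libraries were left out. With dTAG47, the count called higher was 1 (SCG2) under DESeq2, 1 with the replicate block and 1 with a factor for replicates 1 and 2 against 3 and 4, and 2 (SCG2 and CHGA) in replicates 3 and 4 alone, against 0 in the main comparison; the cause was not tested. Replicates taken as separate pairs were added after seeing the data. Values near 0 changed sign with dTAG47: NPY was at -0.28 in replicates 1 and 2 alone, 0.30 in replicates 3 and 4 alone and between -0.090 and 0.11 as single libraries were left out, ADCYAP1 at 0.033 in replicates 3 and 4 alone and between -0.10 and 0.0095, and SCG3 at -0.0062 in replicates 3 and 4 alone and between -0.013 and 0.051. The replicate block was an alternative because deviations of same-numbered libraries correlated at -0.07 to 0.29 in the OmoMYC experiment and 0.01 to 0.16 in parental cells, so the numbers did not pair them. With the block 8100 genes were called against 7311 with OmoMYC and 668 against 23 with dTAG47 (DESeq2 called 7248 and 59, the factor for replicate pairs 794), and 1 of 3 and 2 of 4 libraries correlated best with their own number. Beyond SCG2, the block changed no call among the 7 genes of either experiment. Of the list genes named with OmoMYC, 9 lost their call in at least 1 alternative, TAC4 in 7 of 14. Depth limits VIP, SST and CARTPT, NPY and ADCYAP1 with OmoMYC.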
